A study of Mus musculus with 23 samples.

Results

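The 10 genes Otx2, Fgf5, Pou3f1, Sox11, Sox4, Zic2, Nes, Meis1, Meis2 and Tcf4 were followed through crosslink maps of the chromatin protein CTCF on RNA in mouse ESCs (embryonic stem cells) and in NPCs, the neural progenitors derived from them. They were chosen by name as genes of the formative state and of early neural development. Of 55413 annotated genes, these 10 were kept, and every site lying inside the annotated body of one of them, on its own strand, was counted. The NPC WT list held 206 such sites among 239258, and the ESC WT list held 34 among 451137.

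CTCF organizes chromosome loops through its zinc fingers and also contacts RNA. The assay, iCLIP2, crosslinks protein to RNA with UV light, pulls the protein down and maps the nucleotide at which reverse transcription stopped. All cells came from the E14 line in which both Ctcf alleles carry a degron (mAID-eGFP, with OsTIR1(F74G) at Rosa26), so that 5-Ph-IAA removes the endogenous protein. A doxycycline-inducible Flag-Halo CTCF at the Tigre locus replaced it, either WT or lacking zinc finger 1 (ΔZF1), and each rescue line was 1 clone. All groups, controls included, were treated with 1 µM 5-Ph-IAA and 1 µg/mL doxycycline for 24 h. NPCs had been differentiated for 2 days. The cells were irradiated on the plate at 254 nm with 400 mJ/cm2, except in the no-UV control, which was made from the WT line alone, and nuclei were prepared from the frozen pellets afterwards. The 6 groups were ESC WT (4 libraries), ESC ΔZF1 (4), ESC no UV (4), NPC WT (3), NPC ΔZF1 (4) and NPC no UV (4). The libraries of a group had been merged before sites were called, so each group was 1 pooled list. No difference below has a replicate check or a p-value, and all intervals are 95% intervals that cover counting error only.

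The lists held 429119, 217770 and 150821 genic sites in ESC WT, ESC ΔZF1 and ESC no UV, and 230147, 153211 and 102002 in NPC WT, NPC ΔZF1 and NPC no UV. A list holds only positions past the threshold of the caller, and a count of 0 means that no position passed it. Site counts also follow how much of an RNA was present, and in these pooled cells more cells transcribing a gene and more RNA per cell cannot be told apart. Of 6 naive stem cell markers, all had sites in ESC WT (1248 sites together) and 3 had sites in NPC WT (30 sites). The neural progenitor markers Sox1, Pax6, Hes5, Zic1, Sox3 and Pou3f2 were at 0 in both WT lists and both ΔZF1 lists, with 4 sites in NPC no UV. A site count does not measure whether a marker was expressed. All 8 markers of other lineages were at 0 in the 6 lists.

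When naive stem cells leave the ground state they pass through a formative state, in which factors such as OTX2, POU3F1 and ZIC2 take over enhancers, and then choose a lineage. In the neural lineage SOX11 and SOX4 drive neuronal genes, the intermediate filament nestin (Nes) marks dividing progenitors, and the homeodomain proteins MEIS1 and MEIS2 and the E-protein TCF4 help to set regional identity and timing. UV light links protein to uridine more readily than to the other bases, which is why the base under a site is given beside its count.

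Some of the positions with the highest score for a gene in a list are printed here, not all of them. They show what kind of sequence lay under these calls. For Sox4, for example, the same base was the top call in NPC WT and in NPC no UV. The score is the log posterior odds that the caller gave a position, and is not scaled to depth. Each window of 21 bases comes from mm10 (GRCm38) and runs 5′ to 3′ on the strand of the gene, with the called base in capitals (T stands for uridine).
Meis2, NPC ΔZF1, chr2:116049179-116049199, minus strand, coding exon: gaacccttcaTcctggcgaga
Sox4, NPC WT and NPC no UV, chr13:28953689-28953709, minus strand, 5′ UTR: gaattggggtCtgctctaagc
Sox4, NPC ΔZF1, chr13:28950064-28950084, minus strand, 3′ UTR: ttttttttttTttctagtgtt
Sox11, NPC WT, chr12:27342429-27342449, minus strand, 5′ UTR: cgcccgcgcaGgagaccgagc
Sox11, NPC ΔZF1, chr12:27340146-27340166, minus strand, 3′ UTR: tgtcctggttTaaaaggatta
Nes, NPC WT, chr3:87978666-87978686, plus strand, coding exon: atccctgaatTacccaagact
Nes, NPC ΔZF1, chr3:87978257-87978277, plus strand, coding exon: gggagagctgCtgcaggatgc
Nes, NPC no UV, chr3:87971068-87971088, plus strand, noncoding exon at the gene start: gctcgctgctGgaatcctccg
Zic2, NPC WT, chr14:122477367-122477387, plus strand, intron: cagcagtttgTgagattctct
Meis1, NPC ΔZF1, chr11:18906083-18906103, minus strand, intron: acacacacacAcacacacaca
In NPC WT the strongest calls on Nes and Zic2 were uridines, whereas those on Sox4 and Sox11 were a cytosine and a guanine at most 135 nt from a transcript start. In NPC ΔZF1 the strongest calls on Meis2, Sox4 and Sox11 were uridines, that on Nes was a cytosine and that on Zic2 an adenine. The strongest Meis1 call lay in a run of alternating adenine and cytosine.

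Most of the genes gave sites in NPCs and few or none in ESCs, and this held without UV as well. Together they had 34, 28 and 10 sites in ESC WT, ESC ΔZF1 and ESC no UV, and 206, 153 and 143 in NPC WT, NPC ΔZF1 and NPC no UV. Per 100000 genic sites of each list this was 7.92, 12.9 and 6.63 in ESCs and 89.5, 99.9 and 140.2 in NPCs. The genes therefore took a larger share of the NPC no-UV list than of either NPC list made with UV. Tcf4 alone gave 31 of the 34 ESC WT sites, and Meis2 gave 101 of the 206 NPC WT sites. A site was found on 3 of the genes in ESC WT and on 7 in NPC WT.

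**Figure D1:**
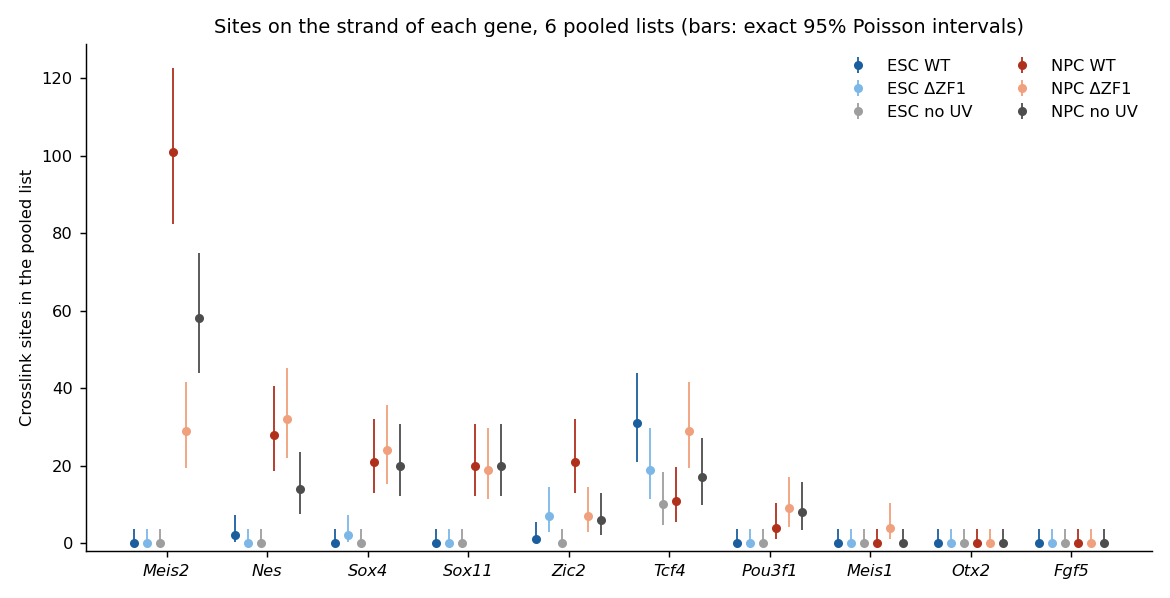
Number of crosslink sites (vertical axis) on the strand of each of the 10 genes (horizontal axis) in the 6 pooled lists, with exact Poisson intervals for counting error as bars. Meis2 stood at 101 in NPC WT and 0 in every ESC list, Tcf4 was the only gene with 10 or more sites in all 3 ESC lists, and Otx2 and Fgf5 were at 0 throughout.

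Changes between lists are given as a log2 ratio of site counts, with a pseudocount of 1, corrected for the total of genic sites per list. A gene entered a comparison when the pair of lists held 20 or more of its sites. The correction adds 0.90 to the ratio of NPC WT to ESC WT and 0.59 to that of NPC ΔZF1 to NPC WT, and takes 1.17 from that of NPC WT to NPC no UV. A gene was called higher or lower at a scaled log2 ratio of at least 1 or at most -1. Between NPC WT and ESC WT, 6 of the 10 genes reached 20 sites and 5 were called higher, where 11.5% of 6730 genes were called higher and 10.4% lower. These 5 genes had between 0 and 2 sites in ESC WT and reached the minimum only through their NPC sites, so that they had to differ, and their number supports nothing further. The remaining 4 genes (Otx2, Fgf5, Pou3f1 and Meis1) had fewer than 20 sites.

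Meis2, a homeodomain factor of neural and limb development, carried the most sites. Its body spans chr2:115863064-116065839 on the minus strand, with 12.0 kb of exon and 191 kb of intron. It had 0 sites in ESC WT, ESC ΔZF1 and ESC no UV, and 101, 29 and 58 in NPC WT, NPC ΔZF1 and NPC no UV. Against ESC WT, the 101 NPC WT sites were at least 33.7-fold more before scaling, taking 3 sites as the floor, and the lower limit of the scaled log2 ratio, which includes counting error, was 5.62. Without UV it likewise had 0 sites in ESCs and 58 in NPCs, at least 19.3-fold more before scaling by the same floor, with a lower limit of 4.48 for the scaled log2 ratio. As it reached 20 sites through the NPC list alone in each of these pairs, the direction of the ratios was fixed by the minimum.

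Between the rescue lines, Meis2 fell by 1.18 on the scaled log2 scale in NPC ΔZF1 relative to NPC WT (-1.80 to -0.62), from 101 sites to 29. It was the only 1 of the 6 genes with 20 sites that was called lower, where 7.36% of 5274 genes were lower and 5.76% higher. NPC WT had 68 intron sites and NPC ΔZF1 had 13, while exon sites went from 33 to 16. The intron sites thus fell by more than the exon sites. From exon sites alone, scaled to the genic exon sites of the lists, the ratio was -0.14. From sites at or above the median score (38 and 18 sites) it was -0.91, short of a call. The NPC no-UV list had 35 intron and 23 exon sites. The NPC WT to NPC no UV ratio of Meis2 was -0.38 (-0.84 to 0.09; 0.79 before scaling), not called, and -1.02 from exon sites alone, past the limit for a lower call.

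The Meis2 sites, exon and intron together, lay mainly in the 5′ part of the gene in NPC WT. Of the 101 sites, 90 lay upstream of the midpoint of the body, or 89.1% (81.5 to 93.8). For NPC ΔZF1 it was 79.3% (61.6 to 90.2), and for NPC no UV 69.0% (56.2 to 79.4). The median distance from the gene start was 27.4 kb for NPC WT sites, 16.8 kb for NPC ΔZF1 sites and 71.1 kb for no-UV sites. The intervals of these shares for NPC WT and NPC no UV did not overlap, while that of NPC ΔZF1 overlapped both. Of the intron sites alone, 66 of 68 in NPC WT, 12 of 13 in NPC ΔZF1 and 26 of 35 in NPC no UV lay upstream of the midpoint.

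**Figure D2:**
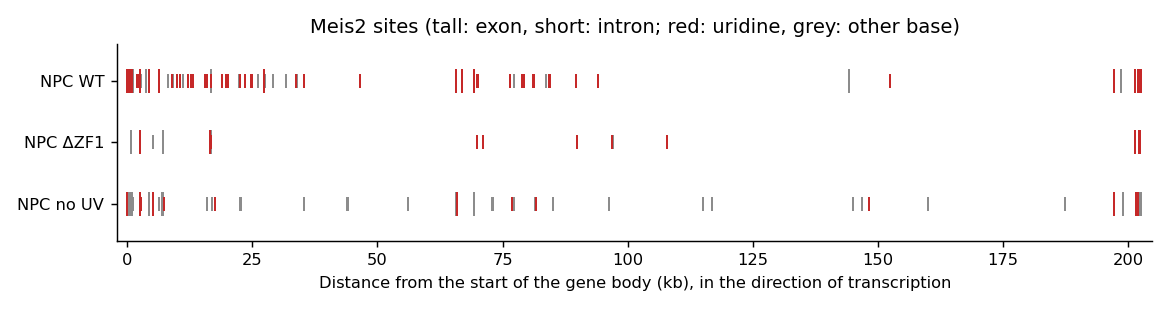
Meis2 sites in the 3 NPC lists against distance from the gene start (kb), drawn tall in exons and short in introns, red at uridines and grey at other bases; close marks overlap. In NPC WT 90 of 101 sites lay before the midpoint of the body and 64 of the 101 were uridines, against 13 of 58 in NPC no UV.

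The base under the Meis2 sites separated NPC WT from NPC no UV. In NPC WT 64 of 101 sites were uridines, or 63.4%, in NPC ΔZF1 15 of 29, or 51.7%, and in NPC no UV 13 of 58, or 22.4%. Intron sites were uridines in 64.7% (52.8 to 75.0), 61.5% (35.5 to 82.3) and 17.1% (8.10 to 32.7) of cases, in the same order. The NPC WT interval lay above that of NPC no UV, in introns and over the gene. The NPC ΔZF1 interval lay above that of NPC no UV in introns. Over the gene the NPC ΔZF1 interval (34.4 to 68.6) narrowly overlapped that of NPC no UV (13.6 to 34.7). Of the 101 NPC WT sites, 3 had a no-UV site within 5 nt and 4 had a ΔZF1 site within 5 nt.

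Tcf4, an E-protein that pairs with neural bHLH factors, was the only gene with an appreciable count in both cell types. Its body covers chr18:69343356-69689079 on the plus strand. It had 31, 19 and 10 sites in ESC WT, ESC ΔZF1 and ESC no UV, and 11, 29 and 17 in NPC WT, NPC ΔZF1 and NPC no UV. By number of sites NPC WT was the lowest of the NPC lists and ESC WT the highest of the ESC lists. Per 100000 genic sites NPC WT was again lowest among NPC lists, at 4.78 against 18.9 and 16.7, whereas ESC WT, at 7.22, lay below ESC ΔZF1 at 8.72.

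The cell type ratio of Tcf4 ran in opposite directions for the proteins. From ESC WT to NPC WT the scaled log2 ratio was -0.52 (-1.57 to 0.38) and was not called. From ESC ΔZF1 to NPC ΔZF1 it was 1.09 (0.29 to 1.94), called higher (background 10.9% of 5113 genes higher). Without UV it was 1.27 (0.23 to 2.43), also called higher (background 11.1% of 3726 genes higher). Before scaling the ratios were -1.42, past the limit for a lower call, 0.58 and 0.71, both short of the limit. The difference between these ratios was not tested.

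Of the 6 genes with 20 sites, Tcf4 was the 1 called higher in NPC ΔZF1 than in NPC WT (background 5.76% of 5274 genes higher), with a scaled log2 ratio of 1.91 (1.00 to 2.97). In ESCs the ratio of ΔZF1 to WT was 0.30 (-0.54 to 1.09; -0.68 before scaling), and Tcf4 was the only gene that reached 20 sites there. It was not called (background 6.84% of 6518 genes higher and 5.45% lower). NPC WT also lay below its own control: the ratio of NPC WT to NPC no UV was -1.76 (-2.87 to -0.73; -0.58 before scaling), whereas ESC WT against ESC no UV gave 0.03 (-0.88 to 1.13; 1.54 before scaling; background 8.12% of 6208 genes higher and 6.6% lower). The NPC WT list enters the comparison with ESC WT, that with ΔZF1 and that with no UV, so these ratios share its 11 sites.

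The place of the Tcf4 sites also changed between ESCs and NPCs. In ESC WT 28 of 31 sites were in exons and 19 in the 3′ UTR. In NPC WT 4 of 11 were in exons and none in the 3′ UTR. In NPC ΔZF1 11 of 29 and in NPC no UV 6 of 17 were in exons, against 17 of 19 in ESC ΔZF1 and 9 of 10 in ESC no UV. The shift from exon to intron was therefore seen in all 3 pairs of lists, no UV included. From exon sites alone the NPC WT to ESC WT ratio was -1.77, past the limit for a lower call, and the NPC ΔZF1 to ESC ΔZF1 ratio was 0.10 (17 to 11 sites), no longer called higher.

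Calls on Tcf4 recurred at a pair of positions. A stretch of the 5′ UTR 2940 to 2947 nt from the gene start, 57 nt from the nearest transcript start, was called in all 6 lists. An intron position 292680 nt from the gene start was called in ESC WT and in all 3 NPC lists, with top scores of 27.1, 26.9, 43.2 and, highest of all, 208.7 in NPC no UV. Together they held 5 of the 11 NPC WT sites. With both left out, 27, 18 and 9 sites stayed in ESC WT, ESC ΔZF1 and ESC no UV, and 6, 26 and 13 in NPC WT, NPC ΔZF1 and NPC no UV. All 6 of the remaining NPC WT sites were uridines, against 14 of 26 in NPC ΔZF1 and 2 of 13 in NPC no UV. In ESCs the remaining sites were uridines in 16 of 27 cases in WT, 5 of 18 in ΔZF1 and 6 of 9 in no UV.

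**Figure D3:**
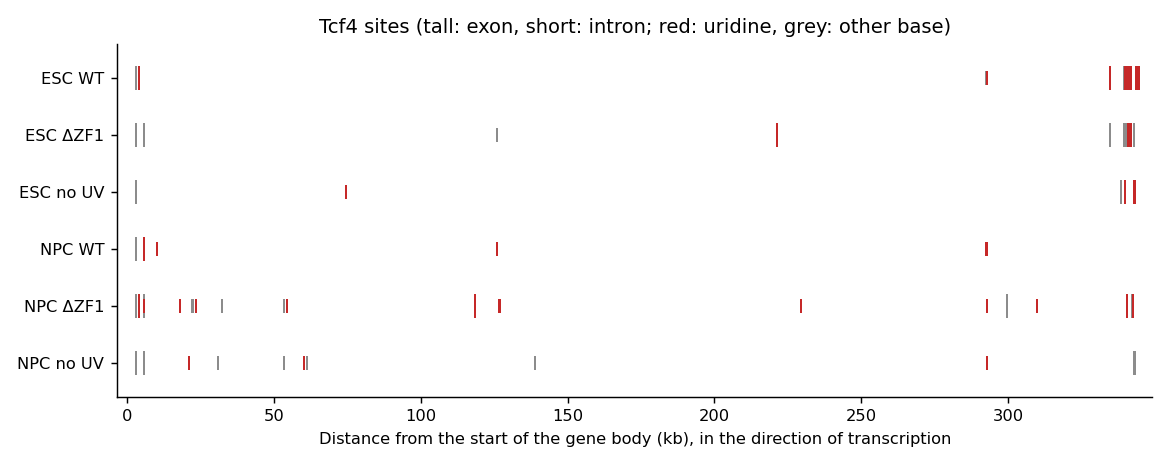
Tcf4 sites in the 6 lists against distance from the gene start (kb), drawn tall in exons and short in introns, red at uridines and grey at other bases; close marks overlap. In ESC WT 28 of 31 sites were exonic and 4 of 31 lay before the midpoint of the body. In NPC WT 4 of 11 sites were exonic and 8 of 11 lay before the midpoint. The position near 292680 nt recurred in 4 lists.

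Nes, the intermediate filament of neural progenitors, spans chr3:87971078-87980451 on the plus strand. It had 2, 0 and 0 sites in ESC WT, ESC ΔZF1 and ESC no UV, and 28, 32 and 14 in NPC WT, NPC ΔZF1 and NPC no UV. All of the sites were in exons, 25, 31 and 13 of them in coding exons in the order of the NPC lists. The NPC WT to ESC WT ratio was 4.17 (2.78 to 6.63). The ΔZF1 to WT ratio in NPCs was 0.77 (0.06 to 1.50), with an interval above 0 that did not reach a call. It was 0.19 before scaling, and it passed the limit at the score minimum (1.49), with uridine sites (1.02) and with exon sites (1.05). Against no UV the NPC WT ratio was -0.22 (0.95 before scaling), so Nes took about the same share of both lists. Uridines made up 42.9% of NPC WT, 46.9% of NPC ΔZF1 and 14.3% of NPC no UV sites, the last being 2 of 14.

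Sox11 and Sox4 are single-exon genes of the SoxC group, which turn on neuronal genes. Sox11 (chr12:27334264-27342574, minus strand) had 0 sites in all 3 ESC lists and 20, 19 and 20 in NPC WT, NPC ΔZF1 and NPC no UV. Sox4 (chr13:28948919-28953713, minus strand) had 0, 2 and 0 in ESC WT, ESC ΔZF1 and ESC no UV, and 21, 24 and 20 in the NPC lists in the same order. The 3 NPC counts of either gene were nearly equal although the lists differed in size.

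Scaled to those sizes, both SoxC genes were lower in NPC WT than in NPC no UV, Sox11 at -1.17 (-2.05 to -0.29) and Sox4 at -1.11 (-1.97 to -0.23). With Tcf4 they were the 3 of 6 genes with 20 sites called lower in that comparison, and none was called higher, where 6.51% of 4765 genes were lower and 10.5% higher. Before scaling the ratios were 0 for Sox11 and 0.07 for Sox4, so the calls rest on the larger size of the NPC WT list. The ΔZF1 to WT ratio in NPCs was 0.52 (-0.38 to 1.40) for Sox11, where it was -0.07 before scaling, and 0.77 (-0.05 to 1.61) for Sox4, where it was 0.18 before scaling, neither called. The Sox4 ratio passed the limit with exon sites (1.05) and with UV sites near a no-UV site left out (1.08).

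The 3′ UTR held most Sox11 sites, and most Sox4 sites in NPC ΔZF1 and NPC no UV but not in NPC WT. Of the Sox11 sites, 12 of 20 in NPC WT, 12 of 19 in NPC ΔZF1 and 18 of 20 in NPC no UV lay there. Of the Sox4 sites 9 of 21, 14 of 24 and 14 of 20 did. In the Sox11 3′ UTR 7 of 12 NPC WT sites were uridines and 5 of 18 no-UV sites were, and in that of Sox4 6 of 9 and 4 of 14. At the 5′ end of Sox4 the cytosine 14 nt from the gene start was the top call both in NPC WT (score 20.9) and in NPC no UV (13.3).

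**Figure D4:**
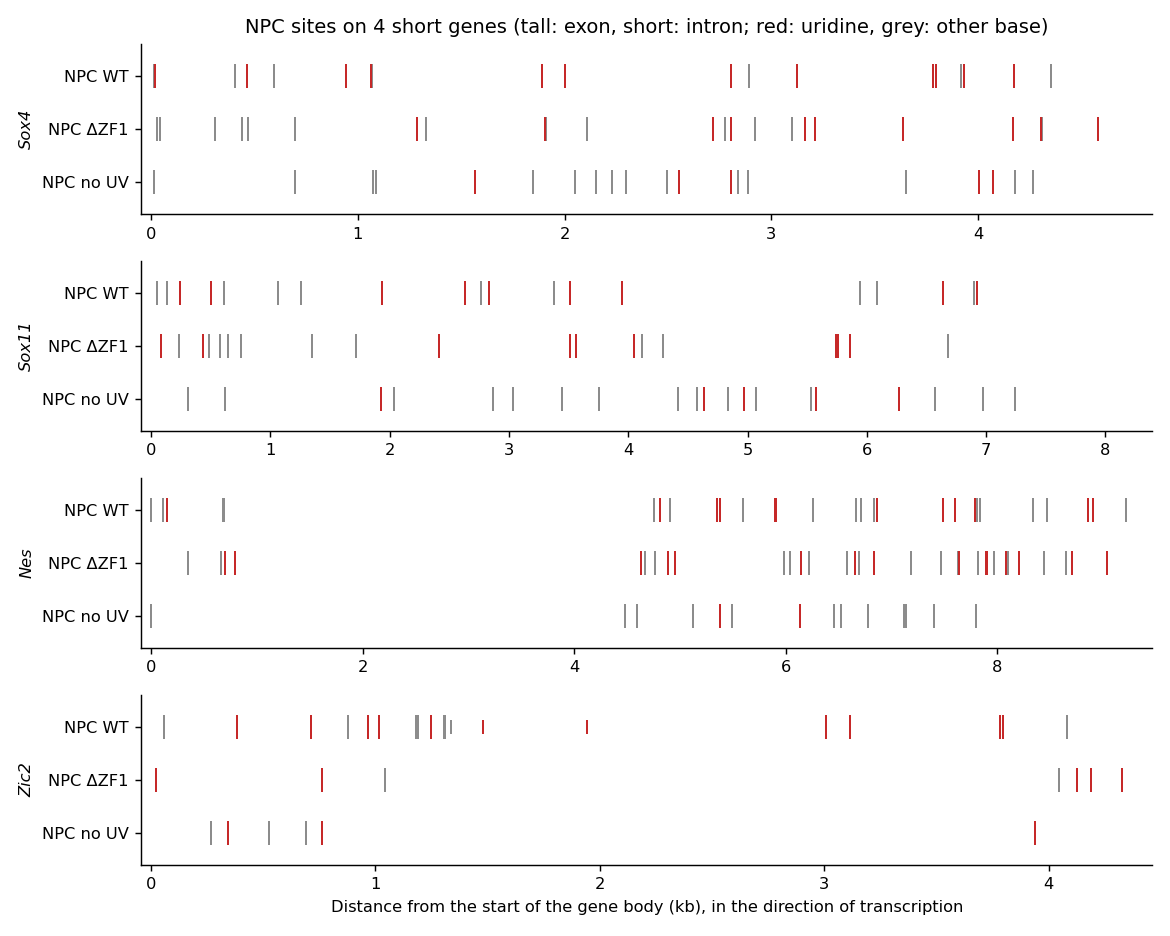
Sites on Sox4, Sox11, Nes and Zic2 in the 3 NPC lists against distance from the gene start (kb), drawn tall in exons and short in introns, red at uridines and grey at other bases; close marks overlap. The no-UV rows are mostly grey on Sox4 and Sox11 (15 of 20 sites each) and Nes (12 of 14) but not on Zic2 (3 of 6), and Zic2 has 21 sites in NPC WT against 7 in NPC ΔZF1.

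Zic2, a zinc finger factor of formative enhancers, spans chr14:122475435-122479852 on the plus strand. It had 1, 7 and 0 sites in ESC WT, ESC ΔZF1 and ESC no UV, and 21, 7 and 6 in NPC WT, NPC ΔZF1 and NPC no UV. It was highest in NPC WT and, in ESCs, higher with ΔZF1. The NPC WT to ESC WT ratio was 4.36 (2.74 to 7.84), and the ΔZF1 to WT ratio in NPCs was -0.87 (-2.20 to 0.20), not called. It passed the limit for a lower call before scaling, at -1.46, and with UV sites near a no-UV site left out, at -1.09. The 8 ESC sites of WT and ΔZF1 together were too few for a call. Of the 21 NPC WT sites 15 were in coding exons, 3 in an intron and 1 in the 3′ UTR, and of the 7 NPC ΔZF1 sites 4 were in the 3′ UTR. The 5 kb past its 3′ end held 5, 1 and 1 sites in the ESC lists and 3, 1 and 2 in the NPC lists, none of them in another gene on the strand, so that ESC WT had more calls just downstream of Zic2 than in its body.

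Pou3f1, the POU factor OCT6 of the formative state, is a single-exon gene (chr4:124656807-124660655, plus strand). It had no ESC site and 4, 9 and 8 sites in NPC WT, NPC ΔZF1 and NPC no UV. Meis1 (chr11:18879817-19018985, minus strand), the paralog of Meis2, had 4 sites, all in NPC ΔZF1, 3 of them in introns. Otx2 (chr14:48657677-48673819, minus strand), which opens formative enhancers, and Fgf5 (chr5:98254184-98277030, plus strand), a growth factor of the epiblast, were at 0 in all 6 lists. No site was found on the opposite strand of any of the 10 genes.

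Per kb of exon, the order in NPC WT was Zic2 (6.25 exon sites per kb), Sox4 (4.38), Nes (4.36), Meis2 (2.74), Sox11 (2.41), Pou3f1 (1.04) and Tcf4 (0.146). Neighbours in this order had overlapping Poisson intervals. Meis2 had the most sites by number in exons (33) and introns (68), but was not first in density: in introns it had 0.36 sites per kb and Zic2 1.95.

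Over the 10 genes, uridine stood under 58.7% of NPC WT sites (51.9 to 65.2), 49.7% of NPC ΔZF1 sites (41.9 to 57.5) and 23.8% of NPC no-UV sites (17.5 to 31.4). All genic sites had 64.6%, 59.0% and 27.9%. The UV lists thus lay above no UV in these genes as in the genome, and NPC ΔZF1 lay below the genic share beyond counting error. The shares were not corrected for the bases of the genes. Uridine made up from 17.7% of exon bases in Pou3f1 and 17.9% in Nes to 30.2% in Meis1. By number, NPC WT had 121 uridine sites and NPC no UV 34, a ratio of 3.56 (2.44 to 5.19), whereas at other bases there were 85 and 109, a ratio of 0.78 (0.59 to 1.03). The same ratios over all genic sites were 5.22 and 1.11. Without Meis2 they were 2.71 (1.65 to 4.45) and 0.75 (0.52 to 1.09), so the excess over no UV at uridines did not rest on that gene.

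Of the 7 genes with sites in both NPC WT and NPC no UV, 6 had a higher uridine share in NPC WT, and Pou3f1 had 25% in both. The intervals were apart for Meis2 alone. In ESCs the sites were few and mostly on Tcf4: 58.8% of 34 in ESC WT (42.2 to 73.6), 35.7% of 28 in ESC ΔZF1 (20.7 to 54.2) and 6 of 10 in ESC no UV (31.3 to 83.2%), with overlapping intervals, so that no difference between UV and no UV was detectable in ESCs.

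**Figure D5:**
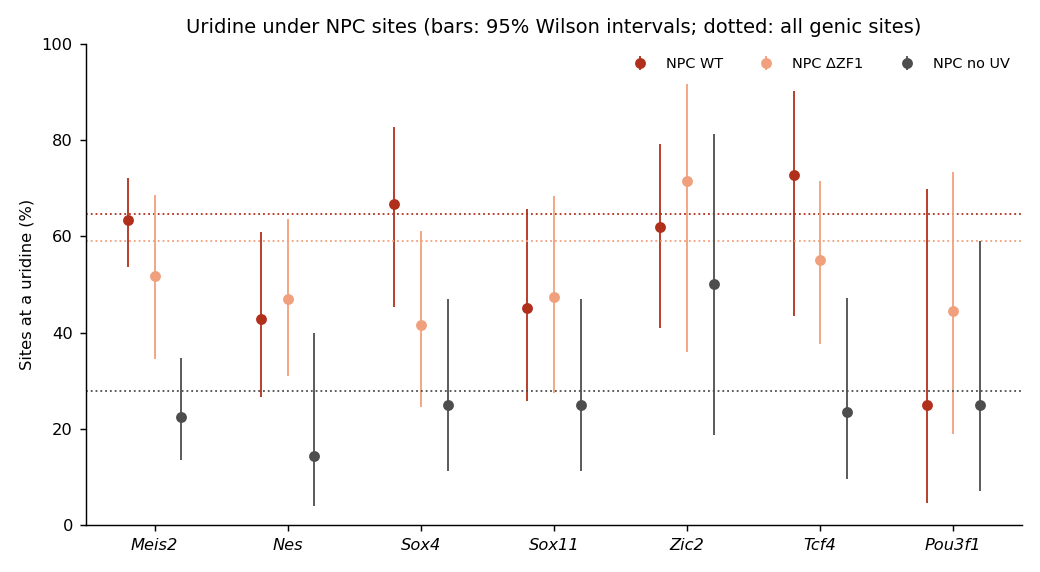
Share of sites at a uridine (percent, vertical axis) for the 7 genes with sites in both NPC WT and NPC no UV, with Wilson intervals as bars; dotted lines mark all genic sites of each list (64.6%, 59.0% and 27.9%). Meis2 was at 63.4% in NPC WT and 22.4% in NPC no UV, with separate intervals.

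Of the sites of the 10 genes, 62.1% (55.3 to 68.5) were exonic for NPC WT, 77.8% (70.6 to 83.6) for NPC ΔZF1 and 67.8% (59.8 to 74.9) for NPC no UV, beside 73.1%, 60.4% and 57.4% of all genic sites. The genes thus lay below the genic share in NPC WT and above it in both other NPC lists. Without Tcf4, Meis1 and Meis2, which have long introns, exons held 96.8%, 100% and 100% of the sites, so nearly all intron sites belonged to those genes.

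Positions were seldom shared between lists. Within 5 nt, 12 of 153 NPC ΔZF1 sites had an NPC WT site (7.84%, beside 13.1% of all genic sites), and 15 of 206 NPC WT sites had an NPC ΔZF1 site (7.28%, beside 10.8%). NPC WT sites met a no-UV site in 17 of 206 cases (8.25%, beside 5.64%), about as often as they met a ΔZF1 site. An ESC WT site lay within 5 nt of 5 of the 11 NPC WT sites on Tcf4, and the other genes had between 0 and 2 ESC WT sites to compare with. Some NPC WT sites came in small groups: the 101 Meis2 sites formed 85 regions when sites within 8 nt were joined. Of these regions 74 held a single site, as did 153 of 176 regions over the 10 genes. The 58 no-UV Meis2 sites formed 58 regions, whereas the 17 no-UV Tcf4 sites formed 14.

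Other genes of the same programmes moved in both directions. Of 16 other formative genes, 9 had 20 sites in ESC WT and NPC WT together. Of these, 2 were called higher in NPC WT and 3 lower (11.5% and 10.4% over all genes compared), with a median scaled log2 ratio of 0.16 (beside 0.04 over all 6730 genes). Dnmt3b, a de novo DNA methyltransferase, went from 13 to 96 sites, and Lin28b, a regulator of let-7 processing, from 0 to 58. The ETS factors Etv4 (44 to 5 sites) and Etv5 (81 to 20) and the growth factor Fgf4 (57 to 13) were lower. Utf1 (19 to 11), Tcf7l1 (253 to 162), Tead2 (31 to 20) and Nodal (24 to 13) stayed within the limits.

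Of 30 other early neural genes, 11 had 20 sites, of which 5 were called higher and 2 lower, beside the same shares over all genes. Some genes called either way, such as Gli3, Pbx3, Ncam1 and Hes1, reached 20 sites only through the list in which they were high. So did Lin28b and Etv4 among the formative genes. The counts are therefore a description and support nothing. Among those higher, the homeodomain gene Pbx3 went from 2 to 35 sites, Notch1 from 14 to 61, the Hedgehog effector Gli3 from 1 to 34 and the E-protein Tcf12 from 11 to 31. Ncam1 (24 to 2) and the Notch target Hes1 (22 to 5) were lower, the latter with an interval that included 0. Vim (48 to 20), Zic5 (13 to 13), Msi1 (13 to 13) and Tcf3 (49 to 28) stayed within the limits. Between NPC ΔZF1 and NPC WT, 8 of the neural genes had 20 sites, of which 2 were called higher, none lower and 6 neither (5.76% of 5274 genes higher). Gli3 went from 34 to 75 sites and Pbx3 from 35 to 48, the latter with a ratio of 1.03 that was 0.44 before scaling. Of the formative genes 8 had 20 sites in that pair of lists. Of these 1 was called higher (Etv5, 20 to 47 sites), none lower and 7 neither.

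The genes whose profile over the 6 lists was most like that of Meis2, by Euclidean distance between log2 of sites per 100000 genic sites plus 1, were Sema3e (distance 1.06), Unc5b (1.15) and Thbs1 (1.25) among 5408 genes. Sema3e had 169, 40 and 90 sites in NPC WT, NPC ΔZF1 and NPC no UV and none in the ESC lists. Those nearest to Tcf4 were Kdm6a (0.77), Cdc42bpa (0.80) and Atf6 (0.81). These genes were picked on the same 6 counts, so their likeness to Tcf4 is a description: NPC WT and NPC ΔZF1 had 15 and 19 sites on Kdm6a, 15 and 23 on Cdc42bpa and 11 and 21 on Atf6.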

How the data were processed

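Sites came from the deposited lists, 1 for each group, in which every line is a single nucleotide with a PureCLIP score. The authors had trimmed the reads (Flexbar), aligned them to mm10 (STAR), removed duplicates by molecular identifiers (UMI-tools), merged the libraries of a group and called sites; versions are not given in the sources used here. The deposited score was used only for the top sites and as a minimum. The 10 genes and the 2 lists of 16 and 30 other genes were chosen with earlier results of these data known. GENCODE M21 gave gene bodies, in the priority coding exon, 3′ UTR, 5′ UTR, noncoding exon and intron, for 21 chromosomes (1 to 19, X and Y), and the RefSeq sequence of GRCm38 gave the base of each site. Named among the other genes were those with at least 20 sites in ESC WT and NPC WT together. Of the lists, 1 gene that was called higher, and 1 site window, are not reported here. Wilson and exact Poisson intervals (95%) were computed with Python 3.11.15, numpy 2.4.6, pandas 2.3.3 and scipy 1.17.1. The count step was tested on simulated data. Reads are not in these lists, so the depth behind a site is unknown.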

Additional observations from a re-analysis of the deposited data

Results flagged for a closer look

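Tcf4 gave ratios of opposite sign under a pair of matched contrasts. On the scaled log2 scale, NPC over ESC gave -0.52 with WT CTCF and 1.09 with ΔZF1. WT over no UV gave 0.032 in ESCs and -1.76 in NPCs. The ESC value is close to 0 (-0.88 to 1.13) and turned negative with uridine sites (-1.17), exon sites (-0.13) and merged sites (-0.08). The NPC value was -1.89 with merged sites and had too few sites for a value with uridine or exon sites. Each ratio comes from 1 pooled list against another, the NPC WT and ESC WT lists enter both pairs, and the differences were not tested. The number of Tcf4 sites in NPC WT, 11, is small, and 5 of them lay within 5 nt of an NPC no-UV site.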

How the results depend on the processing

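No paired analysis was possible because every list pools its libraries, and leaving out single libraries could not be done either. The values below are numbers of the 10 genes called. Without scaling, 1 was lower in NPC than ESC with WT, 2 lower in NPC ΔZF1 than WT (Meis2 and Zic2), 1 higher in ESC WT than ESC no UV, and 1 higher and 0 lower in NPC WT than NPC no UV, where Sox4 turned to 0.067 (from -1.11). With sites at or above the median score, 1 (WT), 1 (ΔZF1) and 2 (no UV) were higher in NPC than ESC, 2 higher and 0 lower in NPC ΔZF1 than WT (Meis2 at -0.91), and 0 lower in NPC WT than no UV. With uridine sites, 1, 1 and 0 were higher in NPC than ESC, 2 higher and 1 lower (Meis2) in NPC ΔZF1 than WT, 0 lower in NPC WT than no UV, and 1 lower in ESC WT than no UV. With exon sites, 1 was lower in NPC than ESC (WT), 2 higher (ΔZF1), and 2 higher (Nes and Sox4) and 0 lower in NPC ΔZF1 than WT. With UV sites near a no-UV site left out, 3 were higher and 1 lower in NPC than ESC (WT), and 2 higher and 2 lower in NPC ΔZF1 than WT. A minimum of 10 sites gave 2 higher in NPC ΔZF1 than WT, and merging sites gave 2 higher in NPC than ESC (WT). Fewer sites per gene reach the minimum under the score, uridine, exon and merging settings; other causes were not tested. The uridine share in NPC WT was 66.7% with the score minimum, and the exon share in ESC ΔZF1 was 100%. Without Tcf4, Meis1 and Meis2 the exon share was 100% in ESC WT, ESC ΔZF1, NPC ΔZF1 and NPC no UV and 96.8% in NPC WT, the uridine share in ESC ΔZF1 was 55.6%, and ESC no UV had no site. At a distance of 0 nt, sharing was 1.96% (NPC ΔZF1 near WT), 1.46% (NPC WT near ΔZF1), 2.91% (NPC WT near no UV) and 0% (ESC ΔZF1 near WT). Within 50 nt it was 39.2%, 27.2%, 24.8% and 39.3% in that order, and 22.9% for NPC ΔZF1 near no UV. With the score minimum it was 3.06% for NPC ΔZF1 near no UV, 5.56% for NPC WT near ESC WT and 20% for ESC WT near no UV. Another 142 such values stayed within their limits.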
